A study of Mus musculus with 4 samples.

Results

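The genes described here act when a cell divides its chromosomes and then itself. They are 45 genes of the G2 and M phases, chosen by name for their role: cyclins and mitotic kinases, ubiquitin ligase factors, kinetochore and spindle checkpoint proteins, the chromosomal passenger complex, kinesin motors, spindle proteins, condensin and chromosome proteins, and cytokinesis proteins. The choice was made with earlier results of these data known. All 45 were found among the 14934 genes of the deposited count table. All 45 passed the filter on low counts, with 341 to 29634 counts in every library. The table compares CD8 T cells sorted by flow cytometry from mouse hepatocellular carcinoma into JAML-positive and JAML-negative cells, with 2 libraries, A and B, in each group. JAML is a junctional adhesion molecule-like receptor of the immunoglobulin superfamily. Both groups are given as wild type (WT) with no treatment named, and the sources used here do not give the age of the mice, the tumour model or the sort gates. It is not stated whether A and B come from different mice, so the p-values reflect the spread of these 4 libraries alone, and that spread may be technical.

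A cell enters mitosis when cyclin-dependent kinase 1 (CDK1) is switched on by cyclins A and B. Spindle microtubules then capture chromosomes at their kinetochores, a checkpoint delays separation until every chromosome is attached, and the anaphase-promoting complex (APC/C) marks cyclin B and securin for destruction so that sister chromatids part. Messenger RNAs of these proteins are scarce in resting T cells and accumulate late in the cycle of T cells that divide after antigen stimulation, so their level in a bulk sample moves with the share of cycling cells. In bulk libraries such as these, a different share of cycling cells and a different amount of the RNA in each cycling cell cannot be told apart.

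All 45 mitosis genes had a higher estimated level in JAML-positive than in JAML-negative cells, with log2 fold changes from 0.04 (Smc4) to 2.43 (Cdca3) and a median of 0.61, which is a 1.52-fold difference. Of all 11563 genes tested, 50.7% had a positive log2 fold change and 49.3% had a negative one, with a median of 0.01. In 35 of the 45 genes the groups did not overlap, with each JAML-positive value above each JAML-negative value, and this held for 20.3% of all genes tested. The reverse order was found for 0 of the 45 and for 18.2% of all genes. Levels are in CPM, counts scaled to library size with trimmed mean of M-values (TMM) normalisation. Fold changes and standard errors (SE) come from edgeR, and a p adjusted by Benjamini-Hochberg over all genes tested of under 0.05 was the threshold.

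No mitosis gene passed that threshold. Adjusted p from edgeR lay between 0.477 and 0.978 for the 45 genes, and 0% of all genes tested passed in either direction. At an unadjusted p under 0.05 there were 19 of the 45 genes, all higher in JAML-positive cells, beside 4.32% of all genes tested on that side and 3.34% on the lower side. With DESeq2, 17 of the 45 genes passed an adjusted p of 0.05, all higher, where 4.64% of all genes passed as higher and 3.02% as lower. With limma-voom 0 of the 45 passed, and 21 had an unadjusted p under 0.05, all higher, where 2.86% of all genes were higher and 3.04% lower. The median SE of the log2 fold change was 0.33 for the 45 genes and 0.56 for all genes tested.

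**Figure D1:**
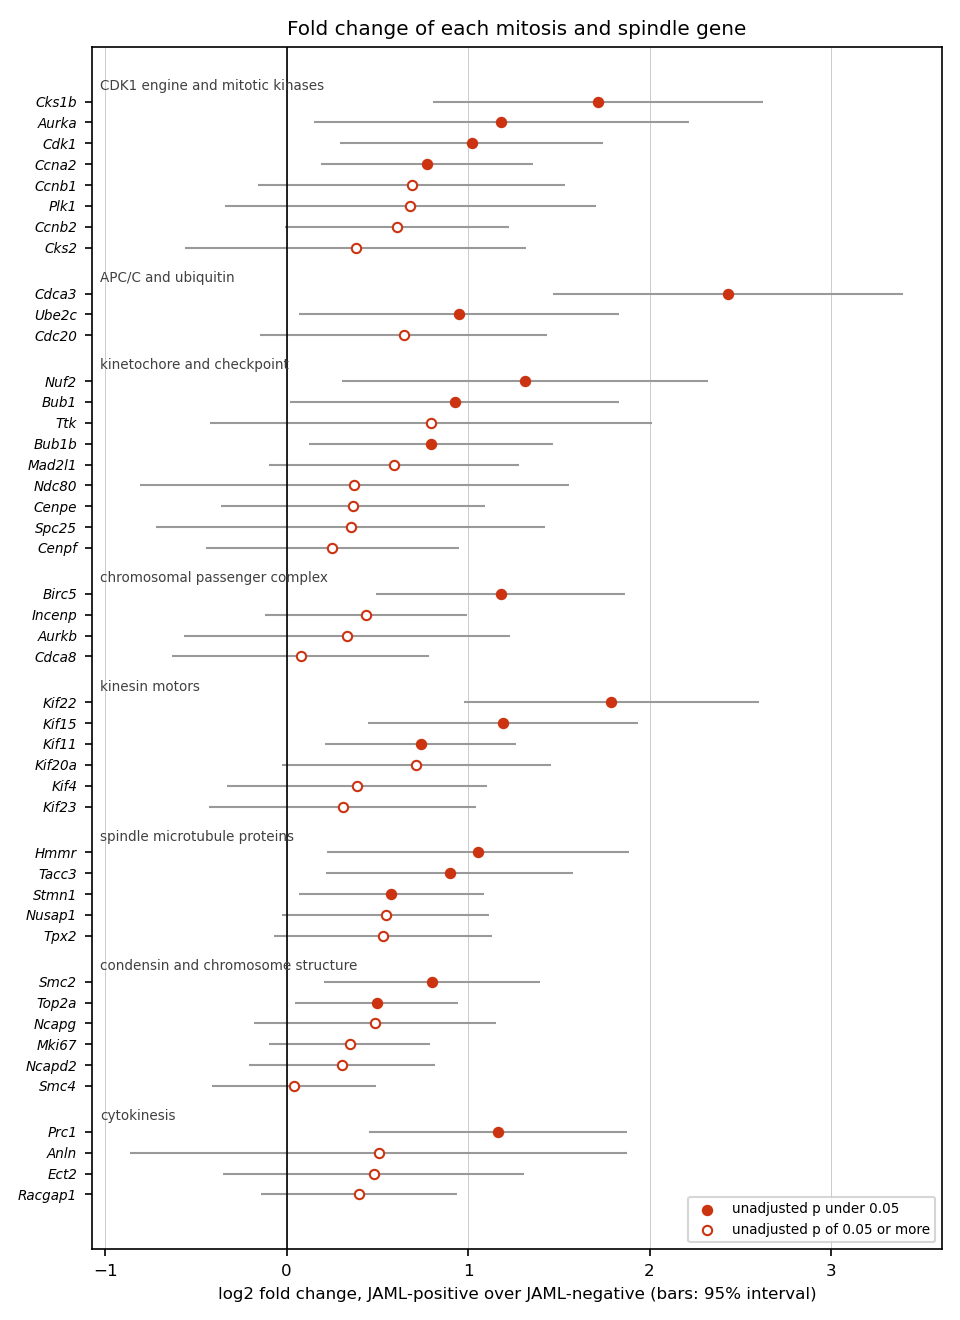
Log2 fold change of each of the 45 mitosis genes (JAML-positive over JAML-negative cells, horizontal axis) with its 95% interval from edgeR, grouped by role. Filled points mark the 19 genes with an unadjusted p under 0.05, and all 45 points lie to the right of 0, from 0.04 for Smc4 to 2.43 for Cdca3.

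The libraries held 27530187 to 30569728 counts. The 45 genes together took 0.519% and 0.531% of the counts of the JAML-negative pair, against 0.708% and 0.791% in the JAML-positive pair. Ribosomal protein genes took 12.1% of the counts in JAML-positive A, against 7.39% to 8.28% in the other libraries. Without it, 44 of the 45 genes still had positive log2 fold changes, their median was 0.55, and 12 had an unadjusted p under 0.05, all higher, beside 1.72% of all genes tested on that side and 1.87% on the lower side. Without JAML-positive B, 10 genes of the whole table (0.0768%) passed the adjusted threshold as higher, and 0 of the 45 were among them. Jaml itself was at 131 and 117 CPM in the JAML-negative pair and at 138 and 147 CPM in the JAML-positive pair (log2 fold change 0.20, SE 0.26), so its groups did not overlap but differed by less than 1 SE. Cd8a, a defining transcript of CD8 T cells, had 27612 to 32904 counts in every library.

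The highest value of a gene fell in JAML-positive A for 24 of the 45 genes, in JAML-positive B for 18 and in JAML-negative B for 3, and in JAML-negative A for 0. Those 3 genes were Cdca8, Ndc80 and Kif23. The lowest value was always in a JAML-negative library, in A for 21 genes and in B for 24. Among all genes tested the highest value fell in a given library for 22.8% to 27.1% of genes and the lowest for 20.8% to 27.3%. The plot of levels by library shows this order gene by gene.

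**Figure D2:**
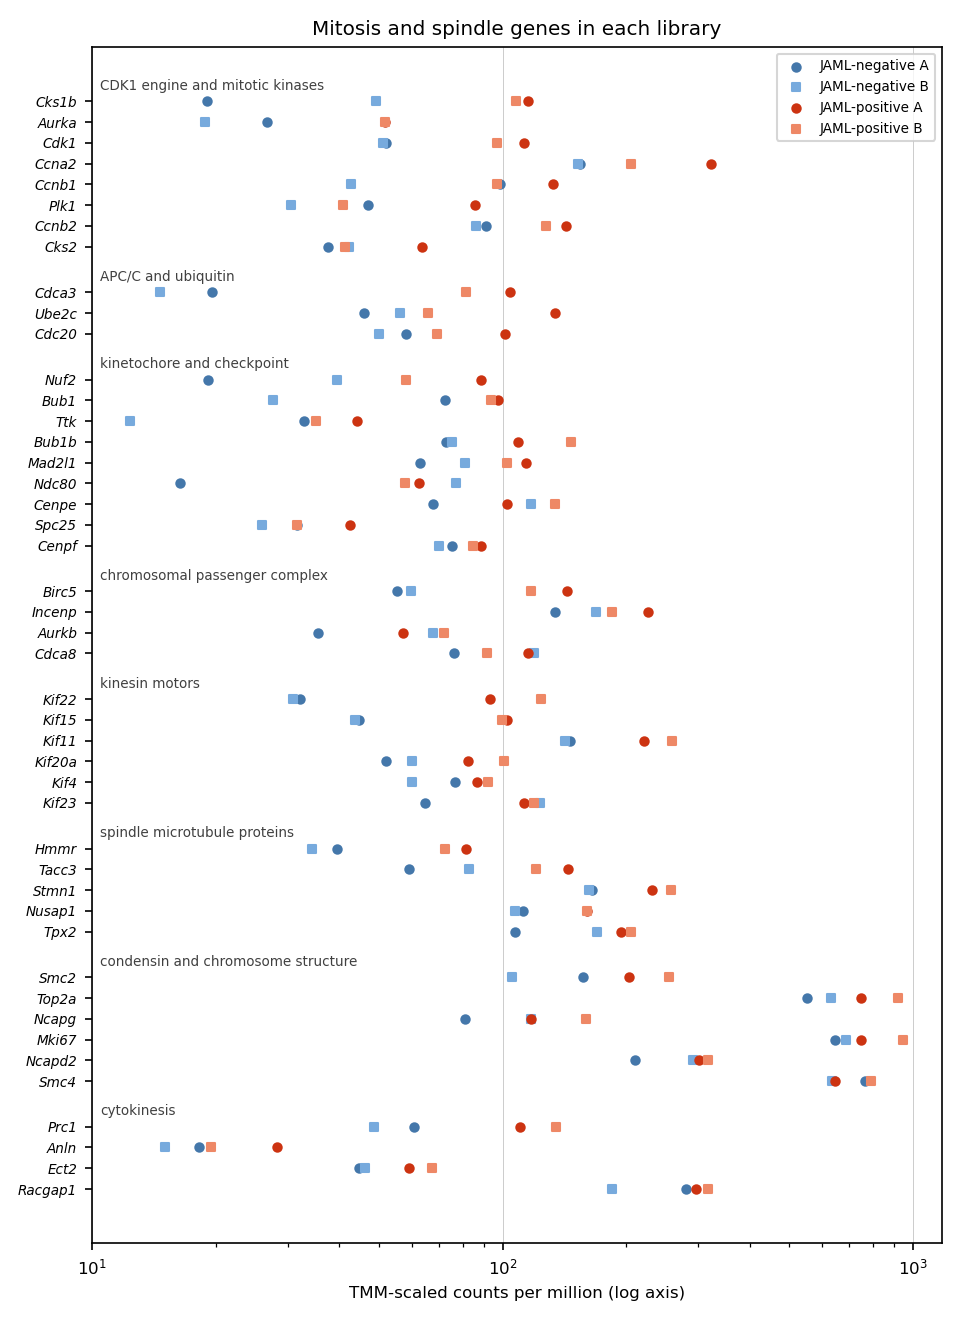
Level of each of the 45 mitosis genes in each of the 4 libraries, in TMM-scaled CPM on a log axis, grouped by role. Blue points are JAML-negative and red points JAML-positive libraries; circles are replicate A and squares replicate B. Red points lie to the right of both blue points for 35 genes, and Smc4, Mki67 and Top2a have the highest CPM.

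Many genes of mitosis share promoter elements. Some of their promoters are printed here, a choice made after all 45 genes were seen to have values on the same side. Whether the elements bear on those values was not tested. In dividing cells such genes are switched on late in the cycle by NF-Y, which binds CCAAT boxes, and by the MuvB complex with B-MYB and FOXM1, which binds the cell cycle genes homology region (CHR) through LIN54. In resting cells MuvB joins the DREAM repressor at the same element. RefSeq promoters (GRCm38.p6, 250 bases before to 50 after the start, the first start listed for a gene) matched 38 of the 45 genes and 9267 of the 11563 genes tested. The letters TTTGAA (CHR) and CCAAT were searched on both strands, and a TTTGAA match overlapped a CCAAT match in 1 case in these 38 promoters, in Cdca8. A pair of CCAAT matches on opposite strands also overlapped in Ube2c. TTTGAA was found in 29 of the 38 promoters (76.3%), in 40 of 106 promoters of other mitosis genes (37.7%) and in 12.5% of all promoters of genes tested. CCAAT was found in 30 of the 38 (78.9%), in 52.8% of the other mitosis genes and in 39.4% of all. Both were present in 26 of the 38 (68.4%), in 23.6% of the other mitosis genes and in 5.33% of all. A CCAAT that began 20 to 40 bases before a TTTGAA was found in 17 of the 38 (44.7%), in 7 of 106 promoters of other mitosis genes (6.6%) and in 1% of all. That spacing was chosen after the positions were seen, which favours the 38 promoters, so its shares are no test. The median log2 fold change was 0.66 for the 26 genes with both elements and 0.64 for the other 12. A match describes letters in a window and is not a measured binding site.

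The printed stretch is the 120 bases just before the RefSeq start used, 5′ to 3′ on the strand of the gene, with every TTTGAA or CCAAT and their reverse complements in capitals. They are the 3 genes that hold both elements in those 120 bases without touching an annotated exon (GENCODE M21); 5 more held both but were left out because the stretch holds annotated exon. The starts can differ from the gene ends in the count table: the stretch of Kif11 lies outside its gene interval there, 10 bases of that of Top2a lie inside, and all 120 of that of Ect2 do.
Kif11 (chr19:37376262-37376381, plus strand): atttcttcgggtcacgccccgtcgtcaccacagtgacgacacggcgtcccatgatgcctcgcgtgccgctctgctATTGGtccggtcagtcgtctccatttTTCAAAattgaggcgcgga
Top2a (chr11:99024190-99024309, minus strand): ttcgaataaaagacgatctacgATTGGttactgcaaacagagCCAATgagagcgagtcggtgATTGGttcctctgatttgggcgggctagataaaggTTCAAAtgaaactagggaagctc
Ect2 (chr3:27153879-27153998, minus strand): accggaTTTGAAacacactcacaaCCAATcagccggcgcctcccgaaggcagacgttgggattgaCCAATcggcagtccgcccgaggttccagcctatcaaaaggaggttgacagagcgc
In Kif11 a single CCAAT box, on the reverse strand, stands upstream of a TTTGAA match close to the start, and in Top2a 3 CCAAT boxes do so. In Ect2 the TTTGAA match lies farthest from the start, with 2 CCAAT boxes after it. In Cdca3, the gene with the smallest p, the window searched holds CCAAT boxes before the start and TTTGAA after it. The window searched holds no CCAAT in Kif15 and neither element in Birc5, which also had small p-values.

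**Figure D3:**
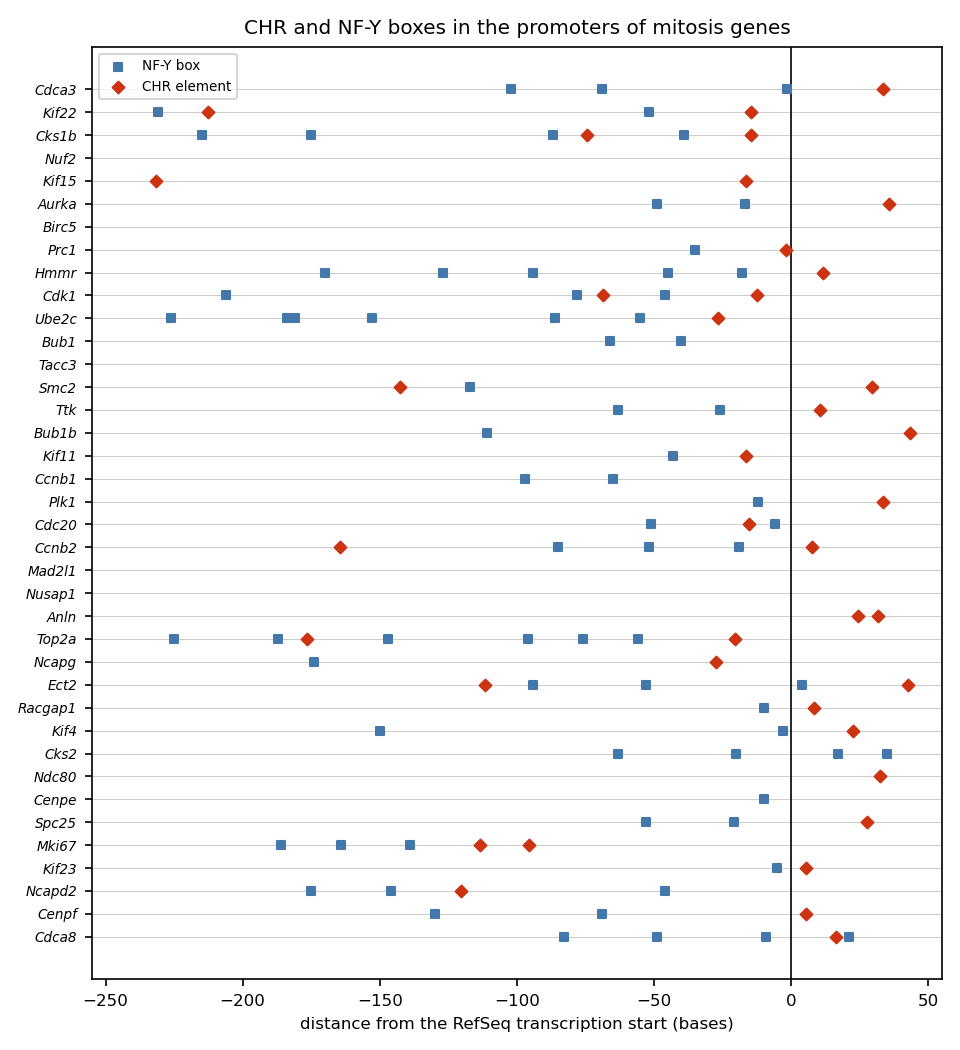
Position of CHR elements (red diamonds) and NF-Y boxes (blue squares) relative to the RefSeq transcription start (vertical line) in the promoters of 38 mitosis genes, in bases, ordered from the highest log2 fold change at the top. CHR elements gather close to the start and NF-Y boxes lie mostly before them, in genes at the top and at the bottom alike.

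CDK1 and the proteins that work with it start mitosis. In what follows, levels are given for JAML-negative A and B and then for JAML-positive A and B, and brackets hold the log2 fold change and its SE. Cdk1, which encodes the central mitotic kinase, was at 52.0 and 51.1 CPM in JAML-negative A and B, while JAML-positive A and B were at 113 and 96.7 CPM. Both pairs were tight and did not overlap, for a log2 fold change of 1.02 (SE 0.33, unadjusted p = 0.00973). Ccna2, cyclin A2, which partners CDK2 and then CDK1, was at 155 and 153 CPM against 321 and 206 CPM (0.77, SE 0.27). JAML-positive A carried the higher of its values. Ccnb2, cyclin B2, was at 91.0 and 86.2 CPM against 143 and 128 CPM (0.61, SE 0.28). Ccnb1, cyclin B1, was at 98.5 and 42.6 CPM against 133 and 96.8 CPM (0.69, SE 0.39). The JAML-negative libraries differed 2.31-fold in Ccnb1, and A lay just above JAML-positive B, so the groups overlapped.

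Cks1b and Cks2 encode the small subunits that dock CDK complexes on phosphorylated substrates. Cks1b was at 19.1 and 49.1 CPM in JAML-negative A and B, while both JAML-positive libraries were higher at 116 and 108 CPM (log2 fold change 1.71, SE 0.42, unadjusted p = 0.00143). Its groups did not overlap, but JAML-negative A lay 2.57-fold below B, and the log2 fold change was between 1.18 and 2.55 over the alternative settings. Cks2 was at 37.4 and 42.3 CPM against 63.7 and 41.2 CPM (0.38, SE 0.43), with JAML-positive B inside the JAML-negative range. The paralogues thus had unequal estimates, and the difference between them was not tested. Aurka, the kinase of the spindle poles, was at 26.7 and 18.8 CPM against 51.7 and 51.7 CPM (1.18, SE 0.47). Plk1, polo-like kinase 1, was at 47.0 and 30.5 CPM against 85.6 and 40.9 CPM (0.68, SE 0.47). Only JAML-positive A lay above both JAML-negative libraries for Plk1.

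The APC/C and ubiquitin genes held the highest fold change of all 45. The Cdca3 gene lies at chr6:124829530-124833701 (GRCm38). Cdca3, an F-box-like protein that promotes degradation of the kinase WEE1, was at 19.6 and 14.6 CPM in the JAML-negative pair and at 104 and 81.5 CPM in the JAML-positive pair. The log2 fold change was 2.43 (SE 0.44, 95% interval 1.47 to 3.40), a 5.41-fold difference, and Cdca3 ranked 3 among 11563 genes by p (edgeR unadjusted p = 0.000131, adjusted p = 0.477). With the filter of at least 30 CPM the smallest adjusted p among the mitosis genes was 0.0642. Ube2c, the ubiquitin-conjugating enzyme of the APC/C, was at 45.9 and 56.2 CPM against 134 and 65.7 CPM (0.95, SE 0.41). Its JAML-positive libraries differed 2.04-fold. Cdc20, the activator of the APC/C in metaphase, was at 58.0 and 50.01 CPM against 101 and 69.0 CPM (0.64, SE 0.36). All 3 genes had groups that did not overlap, with JAML-positive higher, beside 20.3% of all genes tested. In each, JAML-positive A was the highest library, beside 27.1% of all genes tested.

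At the kinetochore, the protein platform where microtubules hold a chromosome, 7 of 9 genes had groups that did not overlap. JAML-positive was higher in these, an order that 20.3% of all genes tested had. Nuf2 and Ndc80 encode partners in the same microtubule-binding complex, to which Spc25 also belongs. Nuf2 was at 19.1 and 39.5 CPM in the JAML-negative pair and at 88.6 and 58.1 CPM in the JAML-positive pair (log2 fold change 1.31, SE 0.46). Ndc80 was at 16.3 and 76.9 CPM against 62.4 and 57.9 CPM (0.37, SE 0.54). JAML-negative B was the highest library for Ndc80 and A the lowest, 4.71-fold apart, and without JAML-negative A the sign turned (-0.36). Spc25 was at 31.5 and 25.9 CPM against 42.4 and 31.5 CPM (0.35, SE 0.49), with JAML-negative A and JAML-positive B almost equal. Fold changes of these subunits of a single complex thus ranged from 0.35 to 1.31 on the log2 scale, each with an SE of 0.46 or more.

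The spindle checkpoint genes keep the APC/C inactive until chromosomes are attached. Bub1b, which encodes BUBR1, was at 72.7 and 75.4 CPM in the JAML-negative pair and at 109 and 147 CPM in the JAML-positive pair (0.80, SE 0.31). Bub1 was at 72.4 and 27.6 CPM against 97.2 and 93.6 CPM (0.93, SE 0.42), and its JAML-negative libraries differed 2.62-fold. Ttk, the kinase MPS1 that starts the checkpoint, showed the same split, at 32.8 and 12.4 CPM against 44.3 and 35.04 CPM (0.80, SE 0.56). Mad2l1, which encodes MAD2, was at 62.8 and 81.0 CPM against 114 and 103 CPM (0.59, SE 0.32). Cenpe, a kinesin that carries chromosomes to the spindle equator, was at 67.5 and 117 CPM against 102 and 134 CPM (0.37, SE 0.33) and overlapped. Cenpf, a large kinetochore protein, was at 75.3 and 70.0 CPM against 88.6 and 84.7 CPM (0.25, SE 0.32), a small difference in which the pairs were nevertheless apart.

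The chromosomal passenger complex, which corrects faulty attachments and later guides cytokinesis, was uneven. Birc5, which encodes survivin, was at 55.1 and 59.7 CPM in the JAML-negative pair and at 143 and 118 CPM in the JAML-positive pair (log2 fold change 1.18, SE 0.32, unadjusted p = 0.00274). Incenp, the scaffold of the complex, was at 134.5 and 168 CPM against 226 and 184 CPM (0.44, SE 0.26). Aurkb, its kinase, was at 35.5 and 67.8 CPM against 57.2 and 72.0 CPM (0.33, SE 0.41). Cdca8, which encodes borealin, was at 76.3 and 119.6 CPM against 116 and 91.8 CPM (0.08, SE 0.33). Birc5 and Incenp had groups that did not overlap, while the JAML-positive values of Cdca8 lay between its JAML-negative values. Without JAML-negative A, Aurkb and Cdca8 had negative log2 fold changes of -0.068 and -0.21, and without JAML-positive A, Cdca8 had one of -0.09.

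Among the kinesin motors 5 of 6 had groups that did not overlap, with JAML-positive higher, beside 20.3% of all genes tested. The Kif22 gene lies at chr7:127027729-127042467 (GRCm38). Kif22, a chromokinesin that pushes chromosome arms toward the equator, was at 32.1 and 30.9 CPM in the JAML-negative pair and at 93.0 and 124 CPM in the JAML-positive pair. Its log2 fold change was 1.79 (SE 0.37, 95% interval 0.98 to 2.60), and it ranked 6 among all genes by p (edgeR unadjusted p = 0.000429, adjusted p = 0.610). Kif15, which helps to keep the spindle bipolar, was at 44.7 and 43.6 CPM against 102 and 99.7 CPM (1.19, SE 0.34). These were among the tightest pairs, and the log2 fold change stayed between 1.18 and 1.27 over the alternative settings. Kif11, the motor that separates the spindle poles, was at 146 and 142 CPM against 221 and 258 CPM (0.74, SE 0.24).

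The other kinesins act on chromosome arms and the midzone. Kif20a, which acts at the central spindle, was at 51.8 and 60.1 CPM in the JAML-negative pair and at 82.5 and 100.5 CPM in the JAML-positive pair (0.71, SE 0.34), but 29.3% of its exonic bases overlap exons of Cdc23 on the opposite strand. Kif4, a chromokinesin, was at 76.4 and 60.2 CPM against 86.6 and 91.9 CPM (0.39, SE 0.33). Kif23, a subunit of centralspindlin, was at 64.8 and 123 CPM against 113 and 119 CPM (0.31, SE 0.34). Kif23 was highest in JAML-negative B, and its sign turned without JAML-negative A (-0.087). Cdc23, an APC/C subunit, had a log2 fold change of -0.53 (SE 0.34), so the overlapping pair had estimates of opposite sign.

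All 5 spindle microtubule genes had groups that did not overlap, with JAML-positive higher, beside 20.3% of all genes tested. Hmmr, a microtubule-associated protein of spindle poles, was at 39.5 and 34.3 CPM in the JAML-negative pair and at 81.6 and 72.5 CPM in the JAML-positive pair (log2 fold change 1.06, SE 0.38). Tacc3, which stabilises the fibres that hold kinetochores, was at 59.0 and 82.7 CPM against 144 and 121 CPM (0.90, SE 0.31). Stmn1, which encodes the microtubule-destabilising protein stathmin, was at 165 and 162 CPM against 232 and 257 CPM (0.58, SE 0.23). Tpx2, which activates Aurora A on spindle microtubules, was at 107 and 169.6 CPM against 194 and 206 CPM (0.53, SE 0.28). Nusap1, a microtubule-bundling protein, was at 112 and 107 CPM against 161 and 160.4 CPM (0.55, SE 0.26). Of this role 3 of 5 genes had an unadjusted p under 0.05 with edgeR, beside 4.32% of all genes tested as higher.

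Condensin and chromosome genes had the highest summed CPM of the roles, not corrected for length, with Smc4, Mki67 and Top2a far above the others. Their median log2 fold change was 0.42, where only the passenger complex was lower at 0.39. Smc2 and Smc4 encode the paired ATPases of condensin. Smc2 was at 157 and 106 CPM in the JAML-negative pair and at 203 and 254 CPM in the JAML-positive pair (0.80, SE 0.27). Smc4 was at 764 and 636 CPM against 645 and 792 CPM (0.04, SE 0.21, 95% interval -0.41 to 0.49), with interleaved libraries, and its sign turned without JAML-negative B (-0.08) or JAML-positive B (-0.12). Ncapg, a condensin I subunit, was at 81.0 and 117 CPM against 117 and 159.7 CPM (0.49, SE 0.31), with JAML-negative B just above JAML-positive A. Ncapd2, another, was at 210.0 and 291 CPM against 301 and 317 CPM (0.30, SE 0.24).

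Top2a, the topoisomerase that untangles sister chromatids, was at 552 and 630.1 CPM in the JAML-negative pair and at 745 and 919 CPM in the JAML-positive pair (0.50, SE 0.21). Mki67, which encodes the proliferation marker Ki-67 of the chromosome surface, was at 647 and 687 CPM against 748 and 948 CPM (0.35, SE 0.20). Both sets of libraries stood apart, yet the fold of Mki67 was 1.27, below the list median of 1.52. Its SE was the smallest of the 45 genes at 0.20, and its 95% interval ran from -0.10 to 0.79.

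Cytokinesis genes had groups that did not overlap in 4 of 4 cases, with JAML-positive higher, beside 20.3% of all genes tested. Prc1, which bundles microtubules of the central spindle, was at 60.8 and 48.5 CPM in the JAML-negative pair and at 110.1 and 135 CPM in the JAML-positive pair (log2 fold change 1.17, SE 0.33, unadjusted p = 0.00378). Racgap1, the other subunit of centralspindlin, was at 281 and 185 CPM against 297 and 317 CPM (0.40, SE 0.25). Ect2, the exchange factor that activates RhoA at the cleavage furrow, was at 44.8 and 46.2 CPM against 59.3 and 67.2 CPM (0.48, SE 0.38). Anln, which encodes anillin of the contractile ring, was the scarcest of the 45 genes, at 18.2 and 15 CPM against 28.3 and 19.5 CPM (0.51, SE 0.63). Of these, Prc1 alone had an unadjusted p under 0.05 with edgeR, beside 4.32% of all genes tested as higher.

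Summed over all 45 genes, the level was 5115 and 5313 CPM in the JAML-negative pair and at 7422 and 7732 CPM in the JAML-positive pair, a ratio of group means of 1.45. Every role sum was higher in both JAML-positive libraries than in both JAML-negative libraries, as the plot of role sums shows. The ratio was 2.27 for the APC/C and ubiquitin genes, 1.79 for CDK1 and its partners, 1.70 for kinesins and 1.26 for condensin and chromosome genes. Smc4, Mki67 and Top2a made up 37.5% of the JAML-negative sum. Their own ratio was 1.23, and that of the other 42 genes was 1.59. No test was made on these sums.

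**Figure D4:**
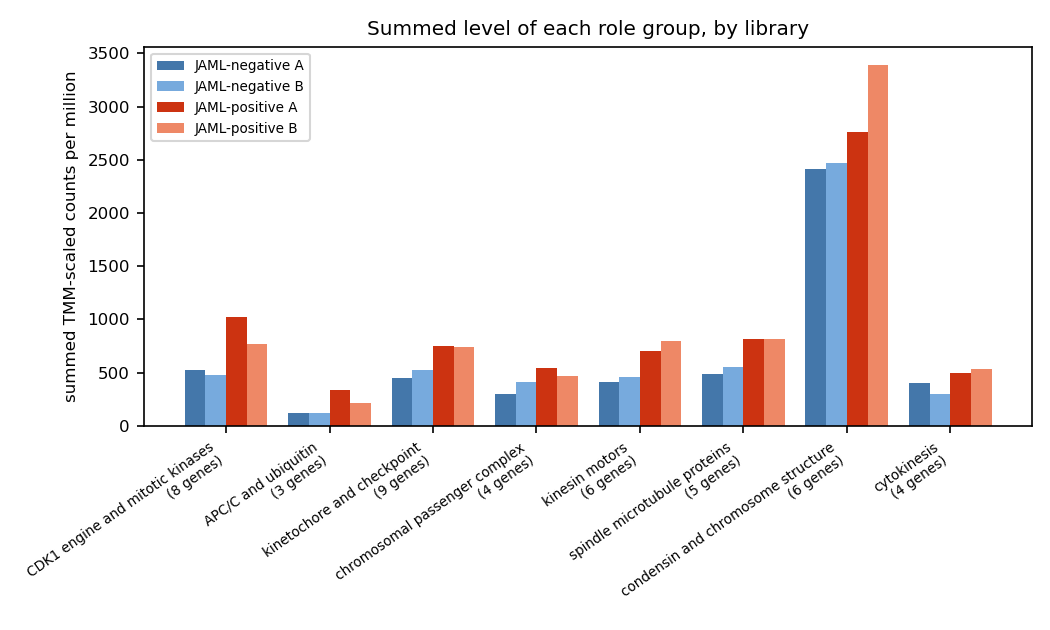
Summed level of the genes of each role in each library (bars, TMM-scaled CPM, axis from 0). The red bars of JAML-positive libraries exceed the blue bars of JAML-negative libraries in every role, with a ratio of 2.27 for APC/C and ubiquitin genes and 1.26 for condensin and chromosome genes.

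Levels between genes were compared per kilobase of the longest transcript, averaged over the 4 libraries. Stmn1 was highest at 192 CPM per kilobase, then Smc4 at 164 and Top2a at 136, and Anln was lowest at 4.39. Cks1b, Mki67, Ccnb2 and Ccna2 lay between 70.3 and 85.7 CPM per kilobase. Cenpf, with one of the longest transcripts at 11130 bases, was at 7.16.

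Libraries of a pair also differed from each other in some mitosis genes. Over the 45 genes the median absolute log2 ratio of A to B was 0.32 for JAML-negative and 0.29 for JAML-positive cells. For the 5757 genes of at least 30 CPM the same medians were 0.33 and 0.36. A difference of more than 2-fold within the JAML-negative pair was found for 6 genes: Ccnb1, Bub1 and Ttk, higher in A, and Cks1b, Ndc80 and Nuf2, higher in B. Within the JAML-positive pair it was found for Plk1 and Ube2c, both higher in A. The pair differences therefore had no common direction: A was higher than B for 24 of the 45 genes in JAML-negative and for 26 in JAML-positive cells.

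Fold changes over all genes were lower for longer transcripts, and the mitosis genes were set beside genes of like length. Among transcripts under 2000 bases the median log2 fold change was 0.61 for 9 mitosis genes and 0.22 for all 2380 genes tested. From 2000 to 4000 bases it was 0.78 for 20 mitosis genes and 0.05 for 4557 genes, and from 4000 bases it was 0.49 for 16 mitosis genes and -0.11 for 4175 genes. With the trend with length removed in the fit, the median of the 45 was 0.59 and 19 genes had an unadjusted p under 0.05, all higher, where 3.93% of all genes were higher and 2.9% lower. By abundance, medians were 0.51 for 5 genes under 50 CPM, 0.93 for 21 genes from 50 to 100 CPM and 0.50 for 19 genes above 100 CPM, beside 0.06, -0.01 and -0.03 for all genes of those classes.

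Leaving out each library in turn, 6 genes had an unadjusted p under 0.05 and a positive value in all 4 fits: Birc5, Cdca3, Cks1b, Kif15, Kif22 and Prc1. Of all 11563 genes, 0.277% met this as higher and 0.19% as lower. The 17 genes that passed with DESeq2 were these 6 with Aurka, Bub1b, Ccna2, Ccnb2, Cdk1, Hmmr, Kif11, Nusap1, Smc2, Stmn1 and Tacc3. Adjusted p from DESeq2 ran from 2.52e-11 for Cdca3 to 0.0342 for Smc2 among them.

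Other mitosis genes, 132 in the table and all 132 tested, had a median log2 fold change of 0.43. The lists held 139 names because older symbols stood beside newer ones, and none of the genes was missing. Of these, 112 had positive values (84.8%, beside 50.7% of all genes tested) and 20 had negative values. Groups did not overlap with JAML-positive higher for 55 (41.7%) and lower for 8 (6.06%), beside 20.3% and 18.2% of all genes. With edgeR an unadjusted p under 0.05 was found for 14 (10.6%), all higher, beside 4.32% of all genes higher and 3.34% lower. With edgeR 0 passed adjusted over all genes. With DESeq2, 14 passed an adjusted p of 0.05, all higher, beside 4.64% of all genes as higher and 3.02% as lower. Those with the smallest p included Knl1, the kinetochore scaffold that binds BUB1, at 18.8 and 41.8 CPM in the JAML-negative pair and at 85.3 and 104 CPM in the JAML-positive pair (1.66, SE 0.43). Cenpa, the histone variant that marks centromeres, was at 59.9 and 62.0 CPM against 133 and 109 CPM (0.98, SE 0.32). Cdc25b, a phosphatase that activates CDK1, differed by 0.63 (SE 0.27) on the log2 scale, and Wee1, the kinase that restrains CDK1, by 1.68 (SE 0.72). The cohesin subunit Rad21 was at 370 and 443 CPM against 572 and 568 CPM (0.49, SE 0.21), and the APC/C subunit Anapc4 had a value of 0.95 (SE 0.37).

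In the remaining lists, kinesins Kif2c and Kif18a differed by 1.01 (SE 0.48) and 1.43 (SE 0.68) on the log2 scale, and Depdc1b and Arhgap11a 1.51 (SE 0.69) and 0.64 (SE 0.31). The condensin subunits Ncaph and Ncapg2 had values of 0.51 (SE 0.34) and 0.50 (SE 0.36). On the lower side the smallest p in their lists belonged to Haspin (-0.25, SE 0.54), Cdc23 (-0.53, SE 0.34), Anapc15 (-0.61, SE 0.75), Cenpq (-0.73, SE 0.46), Nsl1 (-0.73, SE 0.67), Kif5b (-0.28, SE 0.24), Haus1 (-0.84, SE 0.90) and Depdc1a (-0.25, SE 0.39). With edgeR none of the other mitosis genes named here passed adjusted over all genes. With DESeq2, Cenpa, Knl1, Tfdp1, Depdc1b, Rad21, Cdc25b and Anapc4 did, with adjusted p from 0.000646 for Cenpa to 0.0392 for Anapc4.

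**Figure D5:**
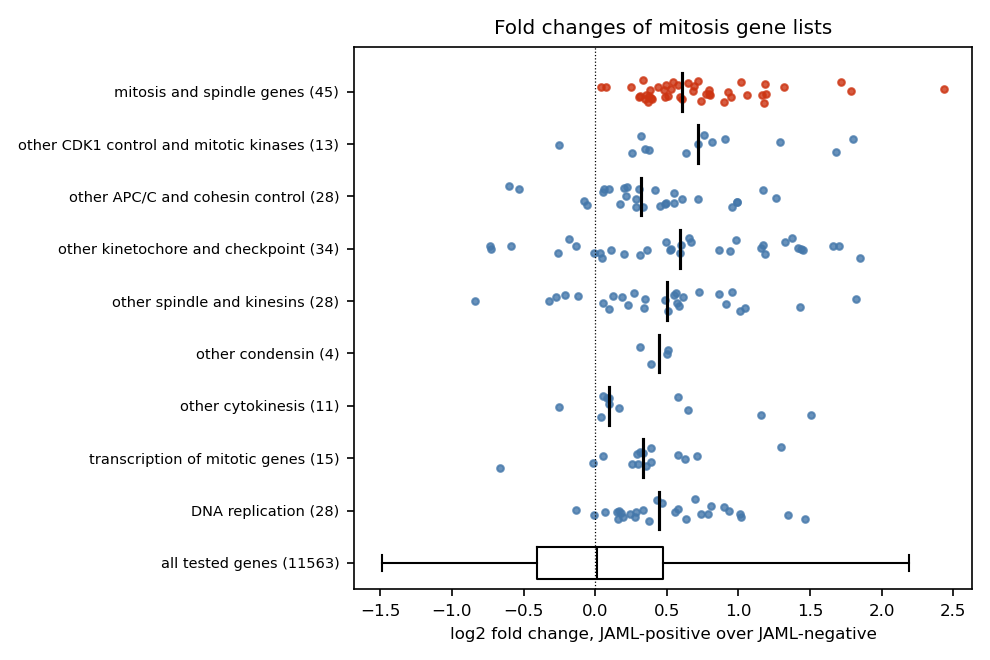
Log2 fold changes of the 45 mitosis genes (red), of 7 lists of other mitosis genes and of DNA replication genes (blue), with the median of each list as a black bar. The box shows the median and quartiles of all 11563 genes tested, with whiskers from the 5th to the 95th percentile; the medians are 0.61 for the 45 genes, 0.45 for DNA replication and 0.01 for all genes.

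Regulators of mitotic transcription were 13 higher and 2 lower, with a median of 0.33. Of all genes tested, 50.7% had a positive value and the median was 0.01. Tfdp1, the partner of E2F factors, was at 119 and 106 CPM in the JAML-negative pair and at 206 and 164 CPM in the JAML-positive pair (0.71, SE 0.27), and Rbbp4, a MuvB subunit, had a value of 0.36 (SE 0.21). Mybl2, which encodes B-MYB, was at 41.7 and 39.95 CPM against 11.04 and 38.7 CPM (-0.67, SE 0.57), and Rbl2, the p130 subunit of DREAM, had a value of -0.02 (SE 0.27). Foxm1, named after its values were seen, was at 63.3 and 51.7 CPM against 38.4 and 100.4 CPM (0.30, SE 0.45). JAML-positive A was the lowest library for both Mybl2 and Foxm1. Of the mitosis genes on the main list, JAML-positive A was the highest library for 24. JAML-positive B, where Foxm1 was highest, was the highest library for 18 of them, and JAML-negative B for 3. Whether these genes follow the regulators across libraries was not tested.

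DNA replication genes of S phase were 26 higher (92.9%, beside 50.7% of all genes tested) and 2 lower of 28, with a median of 0.45. With edgeR 6 (21.4%) had an unadjusted p under 0.05, all higher, beside 4.32% of all genes tested on that side. In 18 of the 28 (64.3%) the groups did not overlap with JAML-positive higher, and in 0 with JAML-positive lower. The shares of all genes were 20.3% and 18.2%. The difference between replication and mitosis genes was not tested.

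Markers of some other cell types differed between the groups, and those of others overlapped. The counts of higher markers below stand beside 50.7% of all genes tested with a positive value. Of 12 dendritic cell and MHC class II markers 9 were tested, all 9 with higher values in JAML-positive cells, and the list took 0.0113% and 0.00839% of counts in the JAML-negative pair and 0.0411% and 0.0256% in the JAML-positive pair. Of 10 plasmacytoid dendritic cell markers 9 were in the table and tested, all 9 higher, at 0.0227% and 0.0226% against 0.0362% and 0.0476%. The list of 7 erythroid markers was at 0% and 3.63e-06% against 0.00474% and 0.00162%, or 0 and 1 counts against 1313 and 496. Its 2 tested haemoglobin genes thus passed the filter only through the JAML-positive libraries, so their higher values were fixed in advance. The same held for Ly6d and Spib (plasmacytoid), Mzb1 (plasma cell), Klra4 (NK cell), Ccr8 (CD4) and Ms4a1 (B cell). Each of these had 0 or 1 counts in each JAML-negative library. It also held for the dendritic marker Flt3, with 1 and 3 counts there. The counts of higher markers in these lists thus include values fixed in advance. In reverse, the B cell marker Bank1, with 7 and 4 counts in the JAML-positive pair, passed only through the JAML-negative libraries. The same can hold for any other marker near 0 counts in a pair. B cell markers took 0.00287% to 0.00391% and 0.00463% to 0.00468% of counts, with 4 of 6 tested markers higher and 2 lower. Plasma cell markers took 0.0185% to 0.0249% and 0.0276% to 0.0281%, with 3 of 5 tested markers higher and 2 lower. CD4 and regulatory T cell markers took 0.0518% to 0.0601% and 0.0676% to 0.0800%, with 7 of 9 higher and 2 lower. With edgeR, 4 of these 9 had an unadjusted p under 0.05 as higher and 1 as lower. It was 5 of 9 as higher for the dendritic and also for the plasmacytoid markers, and 0 of 8 for the CD8 T cell markers. Of all genes tested, 4.32% were higher and 3.34% lower at that level. CD8 T cell markers took 0.421% to 0.425% and 0.408% to 0.437%, with 4 of 8 tested markers higher and 4 lower. Macrophage and monocyte markers took 0.00910% to 0.00952% and 0.0167% to 0.0203%, with 6 of 12 higher and 6 lower. Among them Mpeg1 had 212 and 382 counts in the JAML-negative pair against 3145 and 2802, and its edgeR adjusted p of 0.227 was the smallest of all genes tested. NK cell markers took 0.0738% to 0.0805% and 0.0629% to 0.0810%, with 4 of 8 higher. Endothelial and stromal markers took 0.0147% to 0.0150% and 0.0124% to 0.0153%, and hepatocyte markers 0.00325% to 0.00670% and 0.00319% to 0.00400%. Neutrophil markers took at most 5.75e-05% of counts in any library. The 6 thymocyte and stem cell markers had 0 and 3 counts in the JAML-negative pair against 213 and 385. Their 2 tested genes, both higher, also passed the filter only through the JAML-positive libraries. The part of other cells and of the ribosomal share of JAML-positive A in the mitosis gene values was not tested.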

How the data were processed

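Gene expression was measured by RNA sequencing of 4 libraries. The authors deposited whole-number read counts per gene, with no normalization recorded; the builds GRCm38 and mm10 are named, per the submitters' processing notes. A SMARTER mRNA-Seq kit was used on total RNA, per the labels' protocols. The sources used here do not give the aligner, the counting program, the strand setting or the treatment of multiply matching reads. Exons of 9 of the 45 genes overlap another gene of the table on the opposite strand, by 2.84% (Cdc20) to 29.3% (Kif20a) of exonic bases; Kif4 (15.1%), Ncapg (13.4%), Ccna2 (12.5%) and Prc1 (11.1%) are others.

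Counts were fitted over the whole table with edgeR 4.0.16 in R 4.3.3: filterByExpr with a minimum count of 10 kept 11563 of 14934 genes, libraries were TMM-scaled, and groups were compared by the robust quasi-likelihood test without covariates. The SE was derived from the log2 fold change and the F statistic. DESeq2 1.42.0 and limma 3.58.1 (voom) served as alternatives, with other scalings, other filters, removal of the length trend, each library left out, and a replicate block. The procedure was tested on simulated data. Lengths are of the longest GENCODE M21 transcript. Depth was 27530187 to 30569728 counts, and 3 counts, the floor for a gene without counts, are 0.098 to 0.109 CPM. Such floors cover counting error only, as no molecular identifiers are mentioned. The members and lists were chosen with earlier results of these data known. Values in every library were to be given for the 3 members of each role with the smallest p (all members in roles of 4 or fewer), and for any with a negative value; of other mitosis genes, per list, the 2 of smallest p among the higher and among the lower. Values of the remaining 19 members, and which of the other genes to describe at length, were added after values were seen.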

Additional observations from a re-analysis of the deposited data

How the results depend on the processing

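With DESeq2, 17 of the 45 mitosis genes passed an adjusted p of 0.05, against 0 with edgeR and in each other setting tried. With a library left out in turn, 11 to 14 genes had an unadjusted p under 0.05 (11 without JAML-negative B, 12 without JAML-positive A), all higher, beside 1.72% to 3.93% of all genes in those fits, 41 to 44 had positive values, and the median log2 fold change was 0.55 to 0.72. Signs turned for 5 genes: over these fits Ndc80 ran from -0.36 to 1.89, Aurkb from -0.068 to 0.88, Cdca8 from -0.21 to 0.44 and Kif23 from -0.087 to 0.85, each lowest without JAML-negative A, while Cdca8 was at -0.09 without JAML-positive A, and Smc4 ran from -0.12 (without JAML-positive B) to 0.18, with -0.08 without JAML-negative B; the cause was not tested. Leaving out a JAML-negative library also moved the median of all genes to 0.13. Under the other normalizations, filters and tools the median lay between 0.59 and 0.64 and all tested members had positive values; the filter of at least 30 CPM left out Anln. The letters A and B are not said to pair libraries, and differences between A and B correlated by 0.0176 between the groups across genes. With the letter as a replicate block, 0 genes passed the threshold, 19 had an unadjusted p under 0.05 as higher (2.84% of all genes), and the median was 0.61, so it changed no call. Scaling alone moves levels and their overlap, so these were not recomputed with limma-voom, the replicate block or the length trend removed. With 2 libraries per group, differences near the SE of single genes cannot be told from the spread between libraries.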
